A study of Mus musculus with 8 samples.

Results

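The 8 RNA-seq libraries of mouse embryonic stem (ES) cells in this series were split into a glycolysis-high arm of 4 libraries and a glycolysis-low arm of 4, and transcript levels were compared between the arms. The split is not a treatment and not a label of the study. It was read from the data: the libraries were ranked by the mean log2 normalized count of 6 glycolytic enzymes (Gpi1, Pfkl, Aldoa, Tpi1, Pgk1 and Ldha), and the 4 highest formed the glycolysis-high arm. The libraries of each arm were thus chosen by measured levels of these 6 transcripts, which take part in no test. In falling order, the glycolysis-high libraries were clone 6 at passage 6, clone 20 at passage 16, clone 36 at passage 16 and clone 36 at passage 6. The glycolysis-low libraries were, again in falling order, clone 6 at passage 16, clone 30 at passage 16, clone 30 at passage 6 and clone 20 at passage 6. Wherever values of 4 libraries are listed, they follow these orders.

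Glycolysis breaks glucose down to pyruvate in the cytosol, and lactate dehydrogenase turns pyruvate into lactate where the mitochondria do not take it up. ES cells are the pluripotent cells grown from the inner cell mass of the blastocyst, and they are known for a high rate of glycolysis. Many glycolytic enzyme genes are targets of the hypoxia-inducible factors (HIF), transcription factors whose alpha subunits are hydroxylated by the EGLN prolyl hydroxylases when oxygen is present and then degraded through the VHL ubiquitin ligase.

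The study grew ES cells in medium with LIF, the cytokine that maintains pluripotency of mouse ES cells, and compared passage 6 with passage 16 in 4 clones numbered 6, 20, 30 and 36. All 8 libraries carry the same labels for strain (129S1), genotype (wild type), source (blastocysts) and treatment (expansion in culture), while the methods also name C57BL6 for some ES cells without saying which cells were sequenced. Each library is polyA+ RNA of 1 clone at 1 passage, so that a library stands for a single culture. Each arm held 2 libraries of passage 6 and 2 of passage 16. Clone 36 was in the glycolysis-high arm at both passages and clone 30 in the glycolysis-low arm at both, while clones 6 and 20 had 1 library in each arm and crossed in opposite directions between the passages.

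Several features of the libraries moved with the split. Total reads were between 21394069 and 29061381 in the glycolysis-high arm and between 29140582 and 34295561 in the glycolysis-low arm, with no overlap. Transcripts of 4 Y-linked genes were present in both libraries of clones 20 and 30, at summed levels between 4536 and 5366 normalized counts, and at most 14.2 in clones 6 and 36, so that 1 of 4 glycolysis-high and 3 of 4 glycolysis-low libraries held them. In the library of clone 6 at passage 16 the names on chromosome 6 were shifted upwards, with a median deviation of 0.26 on the log2 scale against values between -0.07 and 0.01 in the other 7 libraries. This library was the fifth in the ranking, and Tpi1, Gapdh, Slc2a3 and Hk2 lie on chromosome 6. The pluripotency factor Pou5f1 was abundant in all 8 libraries, at 23589 to 25487 normalized counts in the glycolysis-high arm and 25478 to 29184 in the glycolysis-low arm.

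The values that set the split are given here as a description, with no test. Pgk1, the phosphoglycerate kinase of the first ATP-yielding step, had 36474, 30841, 24976 and 25346 normalized counts in the glycolysis-high libraries and 16564, 11909.7, 10918 and 10748 in the glycolysis-low libraries. Ldha, the lactate dehydrogenase A subunit, had 33148, 29631, 23685 and 23212 against 17818, 12027, 11527 and 11621. Pfkl, the liver form of phosphofructokinase, had 10329, 9265, 7514 and 7878 against 5921, 3886, 3593 and 3285. For these 3 enzymes the arms did not overlap, and the mean of the glycolysis-high arm was 2.35, 2.07 and 2.1 times that of the glycolysis-low arm, in that order. Aldoa, the aldolase that splits fructose bisphosphate, ranged over 32576 to 46859 against 17853 to 25766, a ratio of 1.8. Gpi1, glucose-6-phosphate isomerase, ranged over 18029.8 to 22229.6 against 11826 to 15558, a ratio of 1.45, the smallest of the 6. Tpi1, triosephosphate isomerase, ranged over 9808 to 13724 against 4181 to 10138, and was the enzyme whose arms overlapped, through the library of clone 6 at passage 16 with its raised chromosome 6.

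The score over the 6 enzymes was 14.08 on the log2 scale in the fourth library, just inside the glycolysis-high arm, and 13.76 in the fifth, just outside it. This gap of 0.32 was smaller than the gap of 0.48 between the fifth and the sixth library, so clone 6 at passage 16 lay between the arms. The order of the 8 libraries was the same when any 1 of the 6 enzymes was left out of the score.

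**Figure D1:**
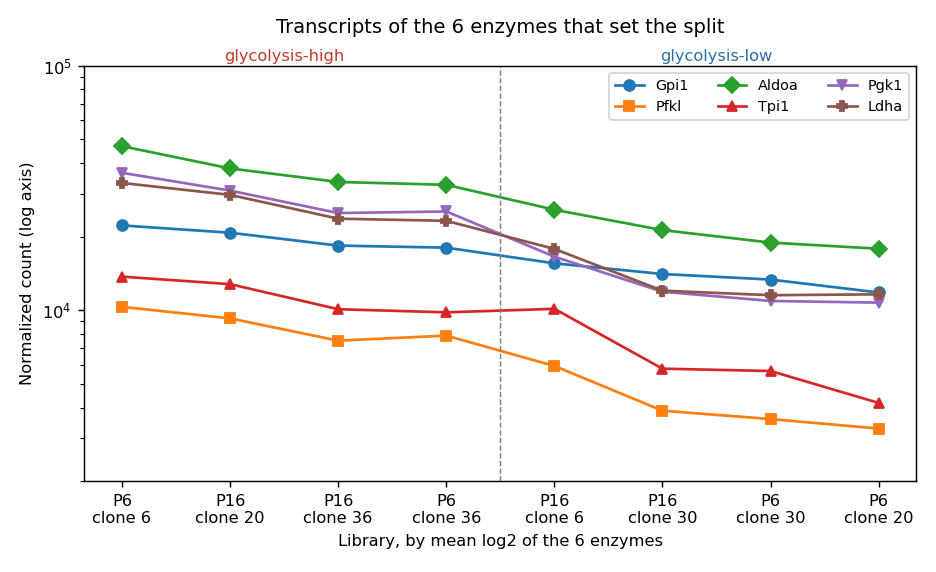
Normalized counts of the 6 enzymes (log axis) in the 8 libraries, ordered by the mean log2 of the 6, with 1 line per enzyme and a dashed line between the arms. All 6 are lower in the 3 libraries on the right than in any glycolysis-high library, and the first glycolysis-low library, clone 6 at passage 16, sits between the arms, with 17818 normalized counts of Ldha against at most 12027 in the other 3.

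HIF binds the core letters ACGTG or GCGTG, and the upstream sequences of 3 genes are shown so that these letters can be read in genes on which the split and the HIF results below rest. Sequences are those of RefSeq on the build GRCm38.p6, the 250 bases before the start that the RefSeq promoter table lists first, written 5′ to 3′ on the strand of the gene, with each ACGTG or GCGTG on either strand in capitals. Pgk1 (chrX:106186850-106187099, plus strand) and Ldha (chr7:46845554-46845803, plus strand) are enzymes of the score. Egln3 (chr12:54203875-54204124, minus strand) is a HIF target gene with a large difference between the arms. The Pgk1 and Egln3 windows end at the outermost start of the gene, whereas the Ldha window lies inside the annotated span of its gene, before a start further downstream.
Pgk1: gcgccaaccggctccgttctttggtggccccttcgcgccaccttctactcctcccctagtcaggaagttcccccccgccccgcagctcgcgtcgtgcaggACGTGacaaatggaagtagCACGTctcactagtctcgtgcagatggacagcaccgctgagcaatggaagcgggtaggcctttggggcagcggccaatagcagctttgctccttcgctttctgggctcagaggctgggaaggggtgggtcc
Ldha: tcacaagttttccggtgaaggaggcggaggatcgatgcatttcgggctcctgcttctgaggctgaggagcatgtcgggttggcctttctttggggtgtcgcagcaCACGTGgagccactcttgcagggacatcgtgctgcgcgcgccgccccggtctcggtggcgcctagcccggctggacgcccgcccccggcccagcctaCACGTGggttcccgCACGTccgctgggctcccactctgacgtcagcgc
Egln3: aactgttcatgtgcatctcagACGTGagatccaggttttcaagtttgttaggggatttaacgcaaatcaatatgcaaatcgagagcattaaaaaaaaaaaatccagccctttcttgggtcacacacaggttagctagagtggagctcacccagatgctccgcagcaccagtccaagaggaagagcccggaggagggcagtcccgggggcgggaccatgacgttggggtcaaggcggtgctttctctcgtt
The Ldha sequence holds CACGTG at 2 places, which reads as ACGTG on both strands and was counted on each. Pfkl held 1 GCGTG, and neither core was found in the window of Gpi1, Aldoa or Tpi1, so that 3 of the 6 enzymes held one of the cores. Among the 9618 tested names with a RefSeq promoter, 21.4% held ACGTG and 56.0% held at least one of the cores. Of the 34 HIF target genes with a promoter, 52.9% held ACGTG and 85.3% at least one of the cores. Among names higher in the glycolysis-high arm by the test below, 92 of 292 (31.5%) held ACGTG, and among those lower, 48 of 253. At least one of the cores was held by 63.0% of the higher and 54.15% of the lower names. The higher names include called members of the HIF target list. The mean GC content of these windows also differed, at 60.2% over all names tested, 63.9% for HIF target genes and 61.9% for the names that were higher. These shares are descriptions of letters in a window and were not tested, and 46.8% of the 9618 windows overlap the annotated span of their own gene, since the listed start is not its outermost one.

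Across all other genes, 682 of 12277 names (5.56%) differed between the arms at an adjusted p under 0.05 (limma on log2(normalized count + 1), two-sided, Benjamini-Hochberg adjustment). Of these, 370 (3.01%) were higher in the glycolysis-high arm and 312 (2.54%) were lower. The p-value here measures association with a split that was itself read from these 8 libraries, with n = 4 libraries per arm. The higher names had larger differences, with a median of 0.58 on the log2 scale and 105 above 1, against a median of -0.38 and 25 below -1 for the lower ones. The median over all 12277 names was -0.0042. An unadjusted p under 0.05 was found for 3039 of the 12277 names. Without regard to any test, 1898 names (15.5%) had arms that did not overlap, 946 higher (7.71%) and 952 lower (7.75%). Of the 682 called names, 666 had arms that did not overlap.

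Calls depended on single libraries. Leaving out 1 of the 8 libraries at a time gave between 98 calls (without clone 20 at passage 16) and 2324 (without clone 20 at passage 6). The fit without clone 6 at passage 16 gave 939. Counts of list members in such fits are to be read against these totals over all 12277 names. Of the 682 names, 83, 52 higher and 31 lower, passed in all 8 of these fits. A fit on reads thinned to the depth of the shallowest library called 583 names, 557 of them among the 682. With the clone as a block the contrast rests on clones 6 and 20 alone, since clones 30 and 36 did not change arm. That fit called 27 names, 24 of them among the 682. Of the 58 called genes named by rule in this text, 13 passed it: Pfkfb3, Pkm2, P4ha1, Plod2, Ankrd37, Egln3, Fth1, Hmgcs1, Ccne1, Fgf5, Ier3, Steap3 and Arhgdib. The other 45 did not pass it, and with clone and passage together 41 of the 58 passed. A term for the presence of Y-linked transcripts left 142 calls, 132 of them among the 682.

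**Figure D2:**
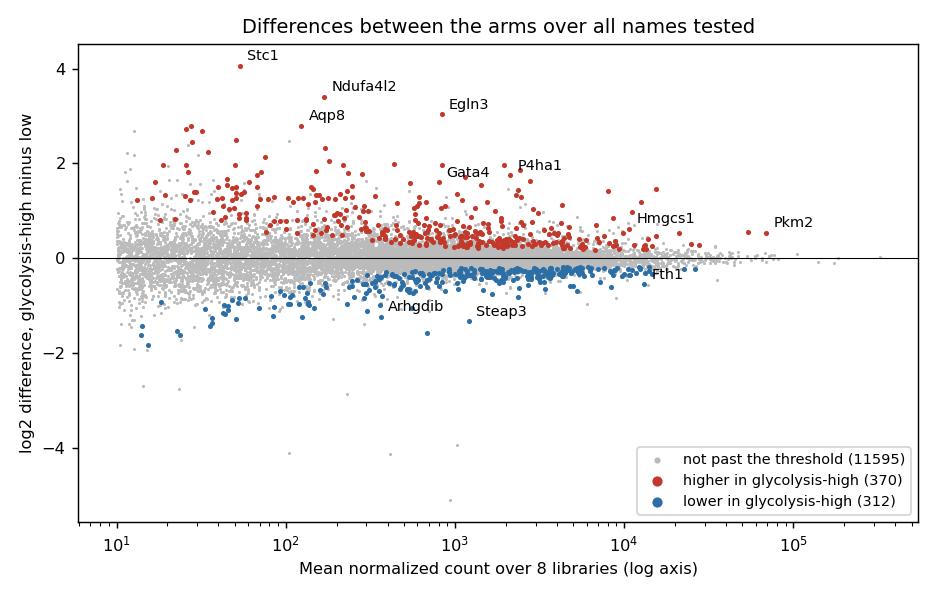
Difference between the arms (log2, glycolysis-high minus glycolysis-low) against the mean normalized count over 8 libraries (log axis), 1 point per name, with names past the adjusted p of 0.05 in red (370 higher) and blue (312 lower). Most of the red points above 1 lie at low and middle abundance, while Hmgcs1 and Pkm2 are abundant transcripts with small differences.

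Part of the other glycolytic genes were higher in the same libraries. They belong to the pathway that set the split, so their levels are not independent of the choice. Of 28 tested enzymes and transporters, 10 were called higher and 1 lower, against 3.01% and 2.54% of all names. The lower one was Eno3, the muscle enolase (-0.67, chosen after its values were seen). The list median was 0.27 against -0.0042 over all names. Pfkfb3, which makes the fructose 2,6-bisphosphate that activates phosphofructokinase, had 1770.5, 1742, 1205 and 1206 normalized counts against 567, 478, 525 and 748. All 4 glycolysis-high libraries lay above the other arm, and the log2 difference was 1.35 ± 0.17 (SE), with an adjusted p of 0.00735 in limma. Aldoc, a second aldolase, had 919, 810.2, 533 and 506 against 334, 157, 134 and 115, and its log2 difference was 1.98 ± 0.33 (SE) (adjusted p = 0.016).

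Pyruvate kinase M, listed as Pkm2, is the last enzyme of the pathway and one of the most abundant transcripts here. It had 92470.0, 81101, 76634 and 77831 normalized counts against 63109, 57308, 54244 and 51405, a ratio of the means of 1.45 (log2 difference 0.54 ± 0.08 (SE), adjusted p = 0.011). Gbe1, the glycogen branching enzyme, was 1.5 times higher (adjusted p = 0.0174), and Slc2a3, a glucose transporter, 1.46 times (adjusted p = 0.0255). Chosen after their values were seen, the lactate exporter Slc16a3 had a log2 difference of 1.85, Pgm2 1.19, Eno2 0.79, Eno1 0.38 and Pgam1 0.27, all past the threshold.

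Not every step of glycolysis differed past the threshold. Gapdh, which makes 1,3-bisphosphoglycerate, had 45819, 41523, 43521 and 41507 normalized counts against 46764, 38494, 37718 and 36112, and its highest value was in the glycolysis-low library of clone 6 at passage 16. Its log2 difference was 0.12 ± 0.08 (SE) (adjusted p = 0.375). Gapdh, like Fth1, has near-identical processed pseudogenes, and the alignment allowed several hits per read, so its counts are uncertain to that extent. Hk2, a hexokinase, had a log2 difference of 0.40 with overlapping arms (adjusted p = 0.117). The glucose transporter Slc2a1 and 1 more listed gene lie in name groups with displaced rows and have no value. With the clone as a block, 2 of the 11 called members of this list remained called, with clone and passage together 8, and without single libraries between 2 (without clone 6 at passage 6 or clone 20 at passage 16) and 17 of the 28 members passed.

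Many HIF target genes outside glycolysis were higher in the glycolysis-high arm as well. Of 43 tested, 25 were called, all of them higher, against 3.01% of all names called higher. In this list 38 had a difference above 0, and the median was 0.60. The list holds neighbours of the glycolytic genes in the same response, so it too is not independent of how the libraries were ranked. P4ha1, the catalytic subunit of collagen prolyl 4-hydroxylase (chromosome 10, 59323197 to 59373304), had 3461, 3534, 2676 and 3358 normalized counts in the glycolysis-high libraries and 1306, 839.6, 750.5 and 1038 in the glycolysis-low ones. Every glycolysis-high library was above every glycolysis-low one, and the log2 difference was 1.75 ± 0.16 (SE) (limma, adjusted p = 0.00301, and 0.024 with the clone as a block). Plod2, a lysyl hydroxylase of collagen, had 5911.5, 6173, 5137 and 6377 against 2940, 2391, 2298 and 3343, a ratio of 2.15 (adjusted p = 0.00499). In each arm it was highest in the library ranked last by the enzymes, clone 36 at passage 6 and clone 20 at passage 6.

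Egln3, a HIF prolyl hydroxylase that is itself induced by HIF, showed one of the largest differences of an abundant transcript. It had 1909.5, 1782, 1123 and 1072 normalized counts against 389, 170.2, 158 and 84.7, so the arms were far apart and the fifth library was again the highest of its arm. The log2 difference was 3.04 ± 0.40 (SE) (adjusted p = 0.00735, and 0.0494 with the clone as a block). Its paralogue Egln1 had 1689, 1906, 1608 and 1251 against 1218, 888, 801 and 657, which gave 0.88 ± 0.19 (SE) (adjusted p = 0.0314). Here the 2 arms came close, since clone 36 at passage 6 and clone 6 at passage 16 differed little.

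Ankrd37, an ankyrin repeat protein whose gene is a standard HIF target, had 353, 341, 231 and 243 normalized counts against 107, 60, 55.8 and 60.4 (log2 difference 2.05 ± 0.23 (SE), adjusted p = 0.00618). Ppp1r3c, a glycogen-targeting subunit of protein phosphatase 1, had 56.1, 57.4, 65.6 and 49.7 against 13.2, 15.5, 12.3 and 6.31 (2.24 ± 0.27 (SE), adjusted p = 0.00733). Ndufa4l2, a paralogue of a respiratory chain subunit, ranged over 214 to 368 against 8.11 to 86.8, a ratio of 8.05 with a wide error on the log2 scale (3.41 ± 0.58 (SE), adjusted p = 0.0174). Thus these 3 genes, all at low or middle abundance, had means at least 4.12 times higher in the glycolysis-high arm.

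Among called members chosen after their values were seen, the mitophagy receptor gene Bnip3 had 4038, 3266, 2315 and 2326 normalized counts against 1889, 789, 512 and 396, and Vegfa, the angiogenic growth factor, 1994, 2366, 1781 and 1687 against 1361, 1187, 979 and 1232. Both had the fifth library as the highest of the glycolysis-low arm. Log2 differences were 1.30 for Ddit4, an inhibitor of mTORC1 signalling, 1.55 for the repressor Bhlhe40, 1.27 for the lipoprotein receptor Vldlr, 1.17 for Ndrg1 and 0.95 for the oxidase Ero1l of the endoplasmic reticulum. Pdk1, which phosphorylates and inhibits pyruvate dehydrogenase, had 7806, 6338, 5707 and 6333 against 6031, 3780.0, 4035 and 3666 with overlapping arms (0.60 ± 0.16 (SE), adjusted p = 0.0567).

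Mean levels of the 43 genes, as log2 deviations from the 8-library mean, were 0.51, 0.55, 0.29 and 0.29 in the glycolysis-high libraries and -0.15, -0.40, -0.55 and -0.54 in the glycolysis-low ones. Their order was close to that of the enzyme score, with clone 6 at passage 16 in between. With the clone as a block, 10 of the 25 calls remained, with clone and passage together 24, with a term for Y-linked transcripts 14, and without single libraries between 14 (without clone 20 at passage 16) and 29 of the 43 members passed. In the thinned reads 25 members passed. The primitive endoderm genes described below were higher in the same libraries, and their part in this difference was not tested.

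Other transcripts of the HIF system, Egln1 and Egln3 aside, did not differ past the threshold. Of 12 regulators, limma, edgeR and DESeq2 called 0, against 682, 655 and 1409 of all 12277 names. With so few members, 0 calls says little about the list. The list median was 0.00. The unadjusted p was under 0.05 for 2 members, against 3039 of all 12277 names. Without single libraries between 0 and 2 passed, with 2 after leaving out clone 20 at passage 6, a fit that called 2324 names. In that fit Epas1 had a difference of 0.64 (limma, adjusted p = 0.0254). Hif1a had 5743, 5391, 5858 and 5874 normalized counts against 5669.6, 5744, 5889 and 5744, and the arms overlapped (-0.01 ± 0.04 (SE), adjusted p = 0.887). Epas1, which encodes HIF-2 alpha, had 2757, 2849, 2462 and 3706 against 2360.3, 1749.7, 1559 and 2705, where the glycolysis-low library of clone 20 at passage 6 was above a glycolysis-high one (0.51 ± 0.18 (SE), adjusted p = 0.127). Vhl had a difference of 0.26 (adjusted p = 0.307). Protein levels and oxygen were not measured in this assay.

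**Figure D3:**
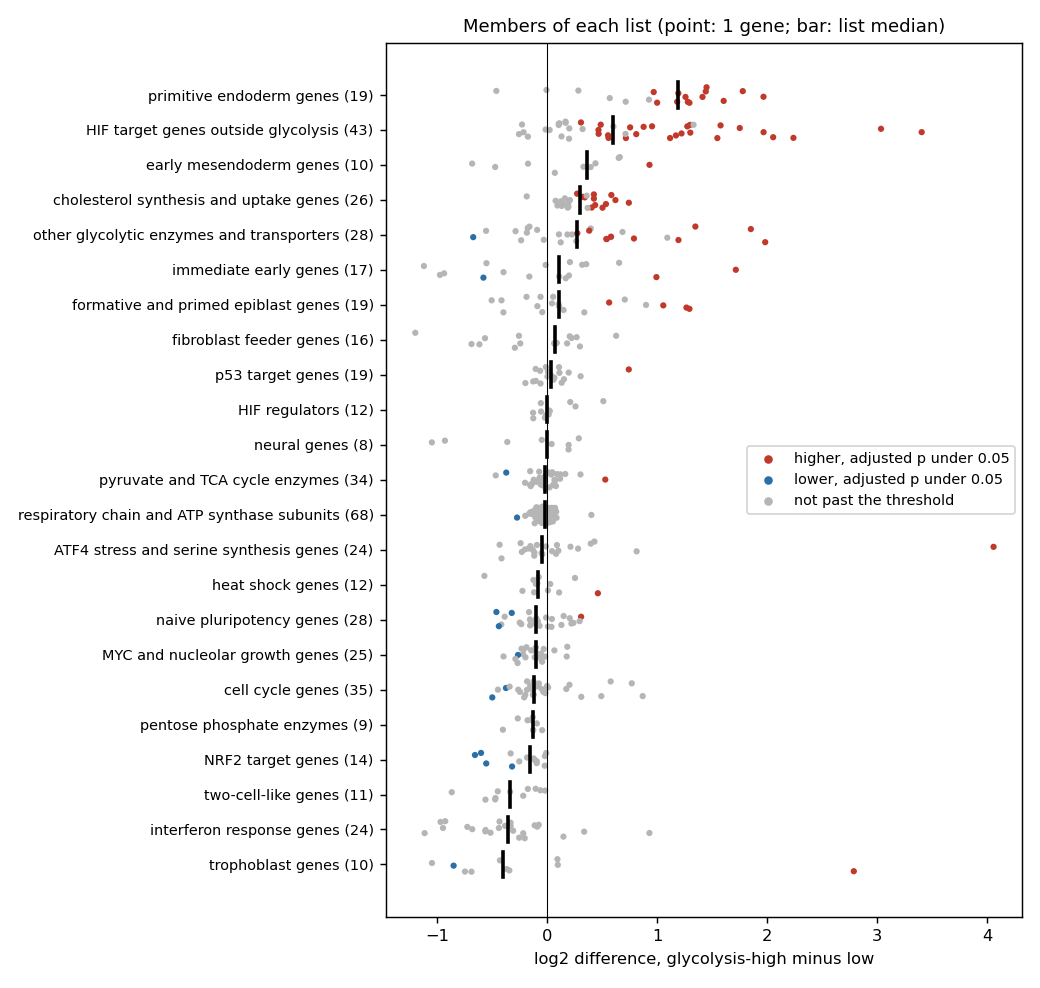
Log2 difference between the arms for every tested member of 23 gene lists, ordered by list median (black bar), with the number of members in parentheses and called members in red or blue. The primitive endoderm, HIF target and cholesterol lists lie mostly to the right of 0, while the 68 respiratory chain and ATP synthase subunits sit close to 0.

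Of 68 nuclear-encoded subunits of the respiratory chain and ATP synthase, 1 was called, against 5.56% of all names. It was the ATP synthase subunit gene Atp5g1, which was lower at 3584, 3746, 4263 and 3923 normalized counts against 4614, 4789, 4577 and 4762 (-0.28 ± 0.06 (SE), adjusted p = 0.03). Without single libraries between 0 and 4 were called. The 4 came without clone 20 at passage 6, a fit that called 2324 of all 12277 names. The median of the list was -0.02, and the differences of its members ran from -0.28 to 0.40. Among 34 genes of pyruvate entry and the TCA cycle, 1 was higher and 1 lower, with a median of -0.02. Me1, the cytosolic malic enzyme, had 1713, 1768, 1601 and 1669 against 1332, 1115, 1033 and 1219.9 (0.53 ± 0.08 (SE), adjusted p = 0.0128). Ogdh, a subunit of the 2-oxoglutarate dehydrogenase complex, had 7914, 8364, 8981 and 8708 against 10022, 11299, 10896 and 11813 (-0.37 ± 0.06 (SE), adjusted p = 0.0152). For Me1, Ogdh and Atp5g1 the arms did not overlap.

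The pentose phosphate pathway, which branches from glycolysis at glucose 6-phosphate and yields NADPH, had 9 tested genes. All 9 had a difference below 0, with a median of -0.13. Limma, edgeR and DESeq2 called 0 of them, against 682, 655 and 1409 of all 12277 names. With so few members, 0 calls says little about the list. An unadjusted p under 0.05 was found for 2, against 3039 of all 12277 names. Without single libraries between 0 and 4 passed, all of them lower. The 4 came without clone 20 at passage 6, a fit that called 2324 names. Taldo1, transaldolase, had the lowest p, at 5024 to 5334 normalized counts against 5296 to 5916 (-0.13 ± 0.05 (SE), adjusted p = 0.125).

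Many genes of cholesterol synthesis and uptake were higher in the glycolysis-high arm. These genes are regulated together by SREBP2, which is released from the endoplasmic reticulum when sterols are low. Of 26 tested, 12 were called, all of them higher, against 3.01% of all names called higher. A difference above 0 was found in 25, and the list median was 0.30. Differences were modest and tight. Hmgcs1, the cytosolic HMG-CoA synthase (chromosome 13, 119690351 to 119708260), had 14042, 13139, 12485 and 12084 normalized counts against 8721, 8051, 8038 and 8843. The arms were far apart relative to the spread within them, and the log2 difference was 0.62 ± 0.06 (SE) (adjusted p = 0.00301, and 0.0278 with the clone as a block).

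Cyp51, lanosterol 14-alpha demethylase, had 4281, 4292, 4202 and 4059 normalized counts against 3129, 2805, 2948 and 3009 (0.50 ± 0.05 (SE), adjusted p = 0.00301). Msmo1, listed under the older name Sc4mol, is a later oxidase of the pathway and had 3990.0, 4259.5, 4171 and 3759.5 against 2838, 2584, 2522 and 2863 (0.58 ± 0.06 (SE), adjusted p = 0.00499). Insig1, which retains the SREBP complex in the endoplasmic reticulum, had 5642, 5297, 4837 and 5485 against 3736, 3335, 3174 and 2561 (0.74 ± 0.10 (SE), adjusted p = 0.00916). The arms did not overlap for any of these 3 genes.

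Within the cholesterol list, 17 of 26 members had arms apart in the higher direction, against 7.71% of all names. Mean levels of the list were 0.16, 0.22, 0.12 and 0.10 in the glycolysis-high libraries and -0.08, -0.20, -0.15 and -0.17 in the glycolysis-low ones. With the clone as a block 1 of the 12 calls remained, with clone and passage together 9, and without single libraries between 5 (without clone 20 at passage 16) and 13 members passed. The list median stayed between 0.25 and 0.32 without each library in turn.

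**Figure D4:**
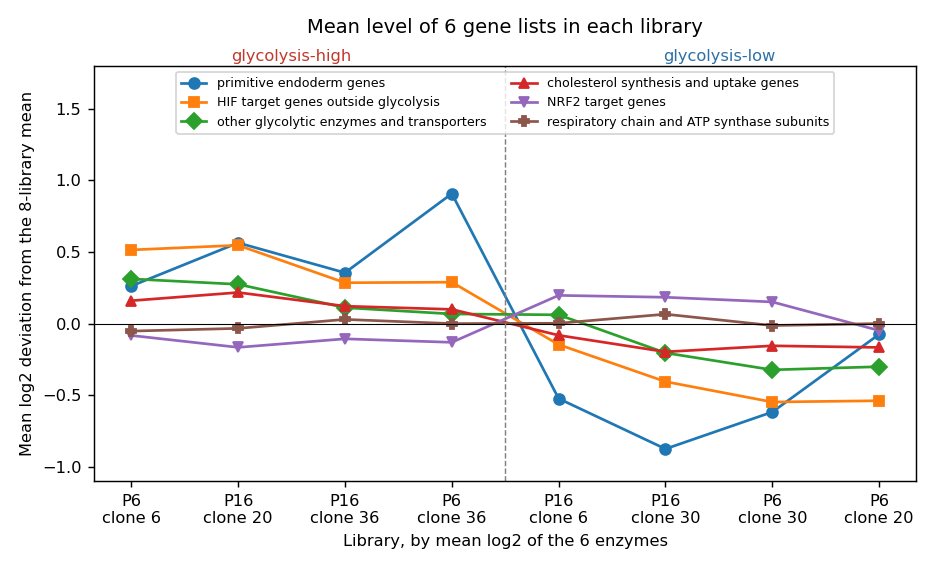
Mean log2 deviation of 6 gene lists from their 8-library mean in each library, ordered by the enzyme score, with 1 line per list. HIF target and cholesterol genes fall with the enzymes from left to right, respiratory chain subunits stay near 0, and primitive endoderm genes are highest in clone 36 at passage 6 (0.91) and, within the glycolysis-low arm, in clone 20 at passage 6 (-0.07).

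Genes of the NRF2 response, the transcriptional answer to oxidants and electrophiles, were in part lower in the glycolysis-high arm. Of 14 tested, 4 were called, all of them lower, against 2.54% of all names called lower. All 14 had a difference below 0, with a median of -0.15. Fth1, the ferritin heavy chain that stores iron, had 10007, 9744, 11471 and 11306 normalized counts against 15743, 15989, 15719 and 14913. The arms lay well apart, with a log2 difference of -0.56 ± 0.06 (SE) (adjusted p = 0.00499, and 0.024 with the clone as a block). Nqo1, a quinone reductase, had 390.2, 372, 376 and 383 against 560.5, 674, 546 and 541 (-0.60 ± 0.09 (SE), adjusted p = 0.00974). Hmox1, the inducible haem oxygenase, had 2493, 2566, 2863 and 2545 against 3323, 4344, 5206 and 3846 (-0.66 ± 0.12 (SE), adjusted p = 0.021). The fourth gene was Gclm, a subunit of the enzyme that starts glutathione synthesis, with a difference of -0.32 (adjusted p = 0.0385), a call that was lost in the thinned reads. Without single libraries between 2 (without clone 6 at passage 6, clone 36 at passage 6, or clone 20 or 30 at passage 16) and 8 members of the list passed, with the clone as a block Fth1 alone, and with clone and passage together 2 of the 4.

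Steap3, a ferrireductase of endosomes (chromosome 1, 120226414 to 120271081), was among the largest lower differences. It had 565, 725, 808 and 642 normalized counts against 1979, 1775, 1512 and 1626, and every glycolysis-low library was above every glycolysis-high one. The log2 difference was -1.34 ± 0.12 (SE) (adjusted p = 0.00301, and 0.0484 with the clone as a block). Tfrc, the transferrin receptor, is on the HIF target list and was higher, at 19358, 18473, 16719 and 16728 against 15077, 12384, 11668 and 12578 (log2 difference 0.47, chosen after its values were seen).

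Most primitive endoderm genes were higher in the glycolysis-high arm. They mark the extraembryonic lineage that ES cultures give rise to in small numbers. In the main test their list median was larger than those of the metabolic lists, although single HIF target genes differed more. Of 19 tested, 13 were called, all of them higher, against 3.01% of all names called higher. A difference above 0 was found in 17, and the list median was 1.19. Gata4, a transcription factor of this lineage (chromosome 14, 63198914 to 63271712), had 950.1, 1254, 1065 and 1586 normalized counts against 463, 252, 389 and 514, with no overlap (1.60 ± 0.23 (SE), adjusted p = 0.00916). Pdgfra, the receptor that marks its cells, had 679, 1003, 787 and 1334 against 455, 347, 398 and 414 (1.19 ± 0.19 (SE), adjusted p = 0.0147). Srgn, the proteoglycan serglycin, had 906, 1239.7, 1204 and 1925 against 353, 182, 317 and 543 (1.97 ± 0.32 (SE), adjusted p = 0.0149). In these libraries fewer cells of a type and less RNA per cell cannot be told apart.

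The basement membrane genes of the list were abundant. Col4a1, a collagen IV chain chosen after its values were seen, had 19899, 21483, 17554 and 30083 normalized counts against 8481, 5438, 6822 and 12923, and the glycolysis-low library nearest to the other arm was clone 20 at passage 6. The log2 differences of Gata6 and Sox7, transcription factors of the lineage also chosen after their values were seen, were 1.28 and 1.78. Levels were also summed over the listed genes outside displaced rows, including 3 too rare to be tested. The sum was between 110620 and 170340 normalized counts in the glycolysis-high libraries and between 62548 and 107120 in the glycolysis-low ones. None of the summed genes was at 0 in all libraries.

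The order of the libraries by primitive endoderm genes differed from that by the enzymes. Mean deviations were 0.26, 0.56, 0.36 and 0.91 in the glycolysis-high libraries and -0.52, -0.87, -0.62 and -0.07 in the glycolysis-low ones. Clone 36 at passage 6, the last of the glycolysis-high arm by enzymes, was the first here, and clone 20 at passage 6, the last of all by enzymes, was the fifth. With the clone as a block 0 of the 13 calls remained, with clone and passage together 7, and with a term for Y-linked transcripts 2. In the clone block fit the list median was 0.79, against 0.65 for the HIF target genes outside glycolysis. Leaving out clone 20 at passage 16 left 1 call, and leaving out clone 20 at passage 6 gave 16. Over all 12277 names these fits gave 98 and 2324 calls.

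Formative and primed epiblast genes mark the step from naive pluripotency to the epiblast of the implanted embryo. Of 19 tested, 4 were called, all of them higher, against 3.01% of all names called higher. The list median was 0.10, with 12 members above 0 and 7 below, and the mean levels of the list overlapped between the arms. The median was -0.03 with a term for Y-linked transcripts, 0.21 within passage 6 and -0.05 within passage 16. Fst, which encodes follistatin and is also on the primitive endoderm list, had 429, 341, 235 and 412 normalized counts against 141, 112, 155 and 157 (1.29 ± 0.20 (SE), adjusted p = 0.0128). Lefty2, a Nodal inhibitor, had 1596, 1698, 2218 and 1555 against 920.1, 625, 1058 and 822 (1.06 ± 0.17 (SE), adjusted p = 0.0138). Fgf5, the classical marker of the post-implantation epiblast, had 228, 145, 140.4 and 146 against 72.8, 79.3, 89.5 and 37.8 (1.27 ± 0.28 (SE), adjusted p = 0.0344). The epiblast factor Tcf15 was 1.47 times higher (adjusted p = 0.0299). Without clone 20 at passage 16, 0 members of this list were called, and without clone 6 at passage 16, 8 were. Those fits called 98 and 939 of all 12277 names.

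Of 28 naive pluripotency genes tested, 3 were called lower and 1 higher, with a median of -0.10, against 5.56% of all names called. Stat3, the transcription factor downstream of LIF, had 2217, 2328, 2452 and 2524 normalized counts against 3599, 3274, 3325 and 2767 (-0.44 ± 0.08 (SE), adjusted p = 0.021). Socs3, a direct target and inhibitor of the same pathway, had 1456, 1838, 1525 and 1449.8 against 2454, 2288, 2005 and 1897 (-0.46 ± 0.10 (SE), adjusted p = 0.0352). Eras, a Ras-like gene of ES cells, was lower by a difference of -0.32 (adjusted p = 0.039), and Dppa5a, an RNA-binding protein gene, was higher by 0.31 (adjusted p = 0.0466). Pou5f1 (-0.14, adjusted p = 0.139) and Nanog (-0.10, adjusted p = 0.59) did not pass. Between 0 and 7 members of the list were called without single libraries, with 0 after leaving out clone 6, 30 or 36 at passage 6, or clone 30 or 36 at passage 16. The 7 came without clone 20 at passage 6, a fit that called 2324 of all 12277 names.

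Markers of other cells moved less evenly. Eomes, a mesendoderm factor, was the 1 called gene of 10 on its list, against 5.56% of all names called. It had 267, 343, 277 and 211 normalized counts against 167, 138, 112 and 156 (0.93 ± 0.17 (SE), adjusted p = 0.0214). Among 10 trophoblast genes 1 was called higher and 1 lower, against 3.01% and 2.54% of all names. Tpbpa was higher, at 60.1, 48.8, 29.7 and 46.2 against 4.39, 7.74, 0.821 and 21.6 (adjusted p = 0.041). Gata3 was lower, at 82.8, 111, 100.4 and 73.4 against 118, 174, 159 and 225 (adjusted p = 0.0492). The call of Tpbpa was lost in the thinned reads. Of 8 neural genes limma and both count tools called 0, with 1 at an unadjusted p under 0.05, and Pax3 had the lowest p (-0.93, adjusted p = 0.192). For 16 fibroblast genes, the cells of a feeder layer, limma and edgeR called 0 and DESeq2 called 1, with 3 at an unadjusted p under 0.05. The summed level of these genes and 3 listed ones too rare to be tested was 35351 to 42853 normalized counts in the glycolysis-high arm. In the glycolysis-low arm it was 30646 to 43362. The lowest p was that of Dcn (-1.20, adjusted p = 0.078). For 11 genes of the two-cell-like state limma and edgeR called 0 and DESeq2 called 1, with 1 at an unadjusted p under 0.05, although all 11 had a difference below 0. Zscan4d had the lowest p among them (-0.87, adjusted p = 0.108).

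Of 35 cell cycle genes 2 were called, both lower, against 5.56% of all names, and 27 had a difference below 0, with a list median of -0.12. Ccne1, the cyclin that drives entry into S phase, had 5636, 5835, 6272 and 6055 normalized counts against 7796, 8728, 8885 and 8274. This was a small difference with tight arms (-0.50 ± 0.05 (SE), adjusted p = 0.00499, and 0.0389 with the clone as a block). Cdt1, which licenses replication origins, had 3840.3, 3427, 4049 and 3628 against 5299.5, 5019, 4935 and 4179.5 (-0.38 ± 0.08 (SE), adjusted p = 0.0323). Without clone 20 at passage 6, 21 of the 35 genes were called, and without clone 6 at passage 16, 5 were. Those fits called 2324 and 939 of all 12277 names. Among 25 MYC and nucleolar genes 1 was called, Cad, the enzyme of the first steps of pyrimidine synthesis, which was lower (-0.27, adjusted p = 0.0203), and 22 had a difference below 0 (median -0.11). Without clone 20 at passage 6, 7 of the 25 were called, and without clone 6 at passage 16, 6 were. The totals over all names were again 2324 and 939. Myc (-0.40, adjusted p = 0.304) and Mycn (-0.27, adjusted p = 0.157) did not pass.

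Of 24 ATF4 and serine synthesis genes 1 was called, with a list median of -0.05, against 5.56% of all names called. Without clone 20 at passage 6 there were 6, in a fit that called 2324 of all 12277 names. The gene called in the main test was Stc1, a secreted glycoprotein, and whether ATF4 regulates it in these cells was not tested. Stc1 had the largest difference of all called names with a mean of at least 50. Its levels were 144, 93.7, 74.8 and 85.3 normalized counts against 23.7, 3.87, 4.11 and 0.901. The glycolysis-low libraries other than clone 6 at passage 16 held only a few reads of it, so the log2 difference of 4.06 ± 0.65 (SE) is imprecise (adjusted p = 0.0148). Pmaip1, a pro-apoptotic gene, was the 1 called gene of 19 p53 targets (0.74 ± 0.12 (SE), adjusted p = 0.0167). Serpinh1, a collagen chaperone, was the 1 of 12 heat shock genes (0.46 ± 0.09 (SE), adjusted p = 0.0251). With 5.56% of all names called, these single calls say little about either list.

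Of 17 immediate early genes 3 were called, against 5.56% of all names. Without single libraries between 0 and 7 were called, with 7 after leaving out clone 20 at passage 6. That fit called 2324 of all 12277 names. Fosb, an AP-1 subunit, was higher at 1906, 2196, 1220.5 and 1656 normalized counts against 608, 580.4, 708 and 290.1 (1.71 ± 0.27 (SE), adjusted p = 0.0147), Ier3 was higher (0.99, adjusted p = 0.0262) and Cyr61, a matricellular protein gene, was lower (-0.58, adjusted p = 0.0342). Interferon response genes varied widely within both arms. Their mean deviations were 0.02, -1.19, 0.29 and 0.15 in the glycolysis-high libraries and -1.26, 1.19, 2.37 and -1.57 in the glycolysis-low ones. Limma, edgeR and DESeq2 called 0 of the 24, with 1 at an unadjusted p under 0.05, and the list median of -0.36 became 0.78 with the clone as a block. The lowest p was that of Nlrc5 (-0.97, adjusted p = 0.133). Xist had 76.9 to 133 normalized counts in the glycolysis-high arm and 94.8 to 185 in the glycolysis-low arm (-0.34, adjusted p = 0.426). The Y-linked Ddx3y (-3.95, adjusted p = 0.394) and Kdm5d (-4.12, adjusted p = 0.22) followed the clones.

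Outside the lists, the largest differences in the higher direction included Aqp8, a water channel gene. It had 178, 182, 159 and 352 normalized counts against 40.3, 24.2, 30.4 and 23.4, a ratio of the means of 7.35 (2.79 ± 0.28 (SE), adjusted p = 0.00332). Ctsh, a lysosomal cysteine protease, had 269.9, 235, 221 and 409 against 45.6, 45.5, 45.2 and 90.1 (2.33 ± 0.27 (SE), adjusted p = 0.00618). Both were highest in clone 36 at passage 6, the library with the most primitive endoderm transcripts. S100g, a calcium-binding protein gene on the X chromosome, had 60.1, 119, 141 and 174 against 26.3, 12.6, 27.9 and 44.1 (2.14, adjusted p = 0.0226), and the predicted gene Gm4980 was 5.74 times higher (adjusted p = 0.00735).

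Lower differences were smaller. Arhgdib, a regulator of small GTPases (chromosome 6, 136923655 to 136941899), had 196, 215, 239 and 216 normalized counts against 457, 535, 493 and 559, with narrow arms (-1.23 ± 0.10 (SE), adjusted p = 0.00301, and 0.0278 with the clone as a block). The uncharacterised transcript 2410004A20Rik had 318, 332, 396 and 288 against 1446, 1122, 885 and 670.3 (-1.58 ± 0.21 (SE), adjusted p = 0.0076). Slc1a1, a glutamate transporter, had 76.2, 58.4, 91.2 and 61.6 against 253, 221, 131 and 114 (-1.25, adjusted p = 0.0344). The means of the other genes with the largest lower differences were 2.48 times as high in the glycolysis-low arm for the transcription factor gene Pou2f3 (adjusted p = 0.0372), 2.41 for the aldehyde oxidase gene Aox3 (adjusted p = 0.0181), 2.24 for Naprt1, an enzyme of NAD synthesis (adjusted p = 0.021), and 2.16 for the zona pellucida gene Zp3 (adjusted p = 0.0214). The calls of Pou2f3 and Slc1a1 were lost in the thinned reads.

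**Figure D5:**
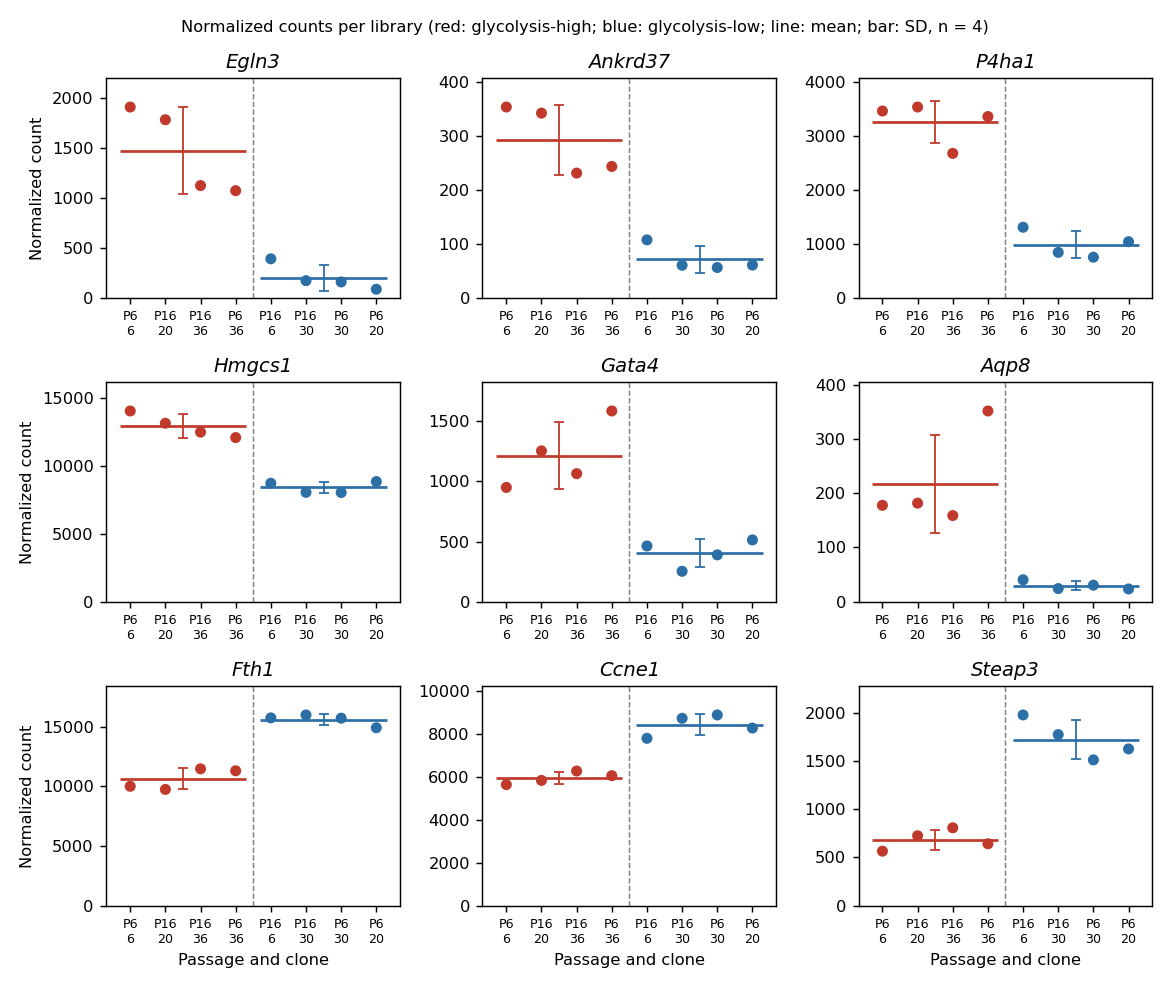
Normalized counts of 9 genes in each library, labelled by passage (P) and clone, with the glycolysis-high arm in red and the glycolysis-low arm in blue, lines at the arm means and bars of 1 SD (n = 4). Every gene shown has arms that do not overlap, and Aqp8 and Gata4 peak in clone 36 at passage 6.

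The differences were also read between libraries of the same clone number. In clone 6, where passage 6 was glycolysis-high, and in clone 20, where passage 16 was, the HIF target list differed by 0.66 and 1.08 on the log2 scale (mean over 43 genes, high minus low). Between clones 36 and 30 it differed by 0.84 at passage 6 and 0.69 at passage 16. The cholesterol list differed by 0.24, 0.38, 0.25 and 0.32 in the same order, the NRF2 list by -0.28, -0.12, -0.28 and -0.29, and the primitive endoderm list by 0.79, 0.64, 1.52 and 1.23. The arms of these 4 lists did not overlap, so the direction of each pair follows from the split, and the sizes alone are informative. Tests within a passage had 2 libraries per arm and called 3 names at passage 6, all lower and all Y-linked (Ddx3y, Eif2s3y and Uty), and 169 at passage 16, 123 of them higher. At passage 6 the glycolysis-high libraries were those of clones 6 and 36, with almost no Y-linked transcripts, and the glycolysis-low ones those of clones 20 and 30, which held them. A term for passage in the fit over all 8 libraries gave 638 calls.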

How the data were processed

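Gene-level RNA-seq values of 8 libraries were used, 4 ES cell clones at passages 6 and 16. Per the methods and the submitters' processing notes, 50-nt single-end reads were aligned to GRCm38/mm10 with TopHat2 2.0.10, Bowtie 1.0.0 and SAMtools 0.1.19, with 2 mismatches and 5 multihits allowed, and counted with HTSeq 0.5.3p9; the strand setting of the counting is not given in the sources used here. The authors deposited a signal per gene, the normalized count, which is the read count divided by 1 size factor per library. Whole reads were recovered for 100% of the values of each library, within a tolerance of 0.01. All columns were used.

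The table holds 23337 names. In 644 groups of names where one name extends another by a digit, 5080 names in all, rows are displaced between libraries and were left out. Of the remaining 18257 names, 12283 had a mean normalized count of at least 10, and 12277 were tested after leaving out the 6 enzymes of the score. The main test was limma 3.58.1 in R 4.3.3 with a mean-variance trend, fitted to log2 of the normalized count plus a pseudocount of 1. Its p-values are two-sided and were adjusted by Benjamini and Hochberg over all names tested, and names under 0.05 were called. The pseudocount shrinks the differences of rare transcripts. The split, the gene lists and the naming rule were chosen with earlier results of these data known. Named by rule were up to 4 called members of each list or the member with the lowest p, the 8 largest called differences in each direction among names with a mean of at least 50 and arms apart, and 17 genes of the HIF, glycolysis, MYC and pluripotency systems or the sex chromosomes. Others are marked as chosen after their values were seen. Ratios are of arm means of normalized counts, differences are on the log2 scale.

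As count tests on whole reads, edgeR 4.0.16 gave 655 calls and DESeq2 1.42.0 gave 1409. On simulated counts with 200 changed names, limma recovered 94.5% with 9 false calls. The simulated libraries were independent, with a fixed dispersion and arms set beforehand. This check of the code therefore does not cover clones shared within an arm or a split read from the data. Clone numbers pair the libraries by the labels. Deviations from the passage means correlated across names between the passages of a clone at r = 0.10, 0.27, 0.70 and 0.43 for clones 6, 20, 30 and 36, and clone 6 correlated more with another clone (0.28). The labels do not say that libraries of different clones came from separate animals, so p-values measure the spread between these cultures, which may be in part technical. RefSeq GRCm38.p6 gave positions and promoters, with 20756 names matched by symbol and 2299 by synonym. Alternatives were other pseudocounts, filters, scalings and tools, terms for passage, clone and Y-linked transcripts, a continuous score, and fits without single libraries. Fits within a passage and on thinned reads were added after seeing the data. Figures were drawn with matplotlib 3.10.9.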

Additional observations from a re-analysis of the deposited data

Results flagged for a closer look

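Within the arms of 4 libraries, 152 sets of values were searched for a library far from the other 3 by Dixon's ratio, the gap of the outermost library divided by the range of log2 values. A ratio above its 95% critical value was met in 12, and chance gives about 1 in 20, which is 7.6 sets here. Of the 12, 3 were set by clone 6 at passage 16, the fifth library of the ranking, for genes on chromosomes 8 and Y.

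In the glycolysis-low arm, that library was the highest for Ankrd37 (ratio 0.881, 107 normalized counts against 55.8 to 60.4). It was also the lowest for the Y-linked Ddx3y (0.953) and Kdm5d (0.872), at 0.877 normalized counts of each, since clone 6 held almost no Y-linked transcripts, and clone 20 at passage 16 was the highest of the glycolysis-high arm for Kdm5d (0.836, 115). Clone 20 at passage 6 was the highest of its arm for Ctsh (0.986, 90.1 against 45.2 to 45.6) and Naprt1 (0.891, 643 against 333 to 358), and the lowest for Pax3 (0.878, 11.7 against 36.1 to 42.1). Clone 30 at passage 16 was the highest for Nqo1 (0.836, 674 against 541 to 560.5).

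In the glycolysis-high arm, clone 6 at passage 6 was the highest for Fgf5 (0.924, 229 against 140.4 to 146). Clone 36 at passage 6 was the highest for Aqp8 (0.831, 352 against 159 to 182), and clone 36 at passage 16 the lowest for Gm4980 (0.866, 55.3 against 93.5 to 101). Clone 20 at passage 16 was the lowest for Mycn (0.932, 2192 against 2907 to 2968).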

How the results depend on the processing

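The number of called names, 682 in the main test, stayed within a factor of 1.5 with pseudocounts of 0.5 and 10, without a filter, with a mean of at least 100, with TMM or quantile scaling, with edgeR, with a passage term, with a continuous score in place of the split, with displaced names kept, without chromosomes 6 and X, on thinned reads, and with a ranking without Pgk1 or Tpi1. It was 350 with eBayes without a trend, 1409 with DESeq2, 142 with a term for Y-linked transcripts and 269 without the libraries ranked 4 and 5. It was 27 with the replicate block, in which the clone number pairs the libraries, and 349 with the replicate block and a passage term. Within passage 6 it was 3 and within passage 16 it was 169, with 2 libraries per arm. Fits without 1 library gave 98 to 2324. The causes were not tested.

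Reversed signs occurred in 4 named genes that the main test did not call. Hif1a was 0.0031 with quantile scaling and ran from -0.0254 to 0.0159 in fits without 1 library, Myc was 0.0685 within passage 16, and Nanog was 0.0114 without the libraries ranked 4 and 5. Ddx3y was 0.48 with the replicate block, with or without a passage term, 0.76 with a term for Y-linked transcripts and 0.58 within passage 16. Stc1 and Tpbpa had under 1 normalized count in 1 glycolysis-low library each, and 4 of the 58 calls of genes named by rule were lost in thinned reads. Depth, Y-linked transcripts and clone identity moved with the split, and with 8 libraries their parts cannot be told apart.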
